A study of Danio rerio with 16 samples.

Results

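mpeg1, marco, mfap4, cybb and other macrophage genes were followed through an RNA-seq experiment on zebrafish larvae that crossed loss of klf9 with chronic cortisol. The genes were taken by a fixed list of identifiers, which gave mpeg1.1 (ENSDARG00000055290), mpeg1.2 (ENSDARG00000043093), marco (ENSDARG00000059294), mfap4 (ENSDARG00000090783), a further gene of the MFAP4 family named MFAP4 (1 of many) (ENSDARG00000088745) and cybb (ENSDARG00000056615), and by name, which gave csf1ra (ENSDARG00000102986) and spi1b (ENSDARG00000000767, paired with its name in a supplementary table of the study). These are 8 of the 22994 genes measured, and all 8 passed the limit on low values that left 21468 genes for testing (5 normalized counts on average across the samples). The list itself uses no measured value, but it was drawn up with earlier results of these samples known. mpeg1.1, mpeg1.2, marco, mfap4, cybb and spi1b also stand in a list that the study drew from these same samples for its response to cortisol, so their direction here is not independent evidence. The paper names mpeg1.1, mpeg1.2 and marco, and irf8, il34 and il1b given below, among genes raised by cortisol in WT larvae only. For these genes a weak response in klf9-/- larvae, a lower level there with cortisol and the interaction are not independent evidence either. The study's supplement lists genes raised by cortisol in WT but not in klf9-/- larvae. The same limit is therefore applied to mfap4, cybb and spi1b, and to mpx and lect2l given below.

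RNA was measured in 16 samples of 10 whole larvae of the AB strain at 5 days post fertilization (dpf), with 4 samples in each of 4 conditions: klf9-/- larvae with cortisol, klf9-/- larvae with vehicle, wild-type (WT) larvae with cortisol and WT larvae with vehicle. Cortisol was given at 1 µM in the medium from 4 h post fertilization, the vehicle was DMSO, and all larvae were raised in 14 h of light and 10 h of darkness and collected 3 h after lights-on. The klf9-/- line descends from 1 female founder that carried a CRISPR-induced frameshift upstream of the DNA binding domain. All 4 samples of a condition came from a single dish, so p-values measure only the spread between samples of that dish, and a difference between dishes cannot be told apart from a difference between conditions. Replicates 1 and 2 were extracted on day 1 and replicates 3 and 4 on day 2, with another order of lysis and homogenization. The paper also describes replicates 3 and 4 as the later samples in the order of collection. Collection order and preparation therefore cannot be told apart in any difference between the days.

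klf9 was lower in the mutant: it had 106 to 136 normalized counts in klf9-/- larvae with cortisol, 78 to 135 in klf9-/- larvae with vehicle, 330 to 511 in WT larvae with cortisol and 165 to 274 in WT larvae with vehicle, so no sample went against its genotype label. The klf9-/- samples with cortisol and with vehicle overlapped, so klf9 does not check their treatment label. The values of all samples had been forced to the same distribution (14653434 normalized counts each), so the number of reads behind a value is unknown and errors come from the spread between samples. No sequence or genome position of the 8 genes is given here.

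Macrophages are phagocytes that arise from myeloid progenitors under the control of the transcription factor PU.1, encoded in zebrafish by spi1b, and that depend on the CSF1 receptor for their growth and survival. In zebrafish larvae they are usually followed with reporters driven by mpeg1 or mfap4. mpeg1 encodes a perforin-like protein that acts against engulfed bacteria, marco a scavenger receptor that binds bacteria and particles, and cybb the catalytic subunit (gp91phox) of the phagocyte NADPH oxidase, which macrophages share with neutrophils. mfap4 encodes an extracellular protein with a fibrinogen-related domain. csf1ra, the CSF1 receptor, is also expressed in xanthophores, the yellow pigment cells. A change in the number of macrophages that altered nothing else would shift genes read only in macrophages by a common factor, so the comparisons below ask both whether the 8 genes moved and whether they moved together. In RNA of whole larvae, more or fewer cells of a type and more or less RNA per cell cannot be told apart.

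Cortisol changed 1 of the 8 genes in klf9-/- larvae past the threshold (limma adjusted p under 0.05, adjusted over all genes tested), csf1ra. The per-sample values are normalized counts, given in replicate order, of which the first pair was prepared on day 1 and the second pair on day 2. csf1ra had 528, 536, 478 and 436 normalized counts with cortisol and 330, 394, 235 and 286 with vehicle, without overlap (seen in that direction for 1.29% of all genes), and the log2 difference was 0.69 (SE 0.145, limma adjusted p = 0.0307, exact two-sided permutation p = 0.029). The lack of overlap alone fixes that permutation p. csf1ra was the 1 gene called of 8, where 2.59% of all genes were called higher, and the call was kept in 11 of the 16 fits that left out 1 sample. Leaving out klf9-/- vehicle replicate 3, or klf9-/- cortisol replicate 1 or 3, called 0% of all genes for cortisol in klf9-/- larvae. No call of that comparison, including those of the marker lists below, was kept in those fits.

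The remaining 7 genes were above 0 in klf9-/- larvae without passing the threshold, and cortisol and vehicle samples overlapped for each of them. mpeg1.1 had 88, 118, 80 and 42 normalized counts in klf9-/- larvae with cortisol and 96, 58, 30 and 32 with vehicle, a log2 difference of 0.68 (SE 0.223, limma adjusted p = 0.0734). MFAP4 (1 of many) had 97, 144, 89 and 51 with cortisol and 94, 90, 38 and 38 with vehicle, a difference of 0.59 (SE 0.218, limma adjusted p = 0.096). These 2 genes came nearest to a call and passed the threshold when a separate mean was fitted for each condition and day, a fit that called 20.4% of all genes in either direction, against 5.3% here.

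The 5 others lay lower still. mfap4 had 58, 78, 56 and 42 normalized counts with cortisol and 70, 68, 28 and 31 with vehicle (log2 difference 0.34, SE 0.189), with −0.04 on day 1 and 0.72 on day 2. mpeg1.2 had 465, 424, 254 and 180 with cortisol and 328, 350, 165 and 188 with vehicle (0.33, SE 0.179). cybb had 65, 69, 65 and 38 with cortisol and 58, 54, 48 and 36 with vehicle (0.26, SE 0.141). Their groups overlapped in every case, and the differences were at most about 2 standard errors. marco had 20, 22, 17 and 14 with cortisol and 20, 18, 16 and 12 with vehicle (0.15, SE 0.179), and spi1b had 38, 44, 29 and 28 with cortisol and 47, 34, 30 and 22 with vehicle (0.09, SE 0.147). The median over the 8 genes was 0.34, against −0.01 over all genes, with adjusted p of limma between 0.0734 and 0.715 for the 7 genes not called.

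In WT larvae, all 8 genes were higher with cortisol, by very different amounts. mfap4 and MFAP4 (1 of many) changed the most and csf1ra the least. mfap4 had 408, 332, 148 and 140 normalized counts in WT larvae with cortisol, against 44, 67, 36 and 30 with vehicle. MFAP4 (1 of many) had 520, 391, 205 and 186 with cortisol and 55, 85, 58 and 52 with vehicle. For both genes the lowest sample with cortisol lay above the highest with vehicle. Their log2 differences were 2.44 (SE 0.189, limma adjusted p = 5.23e-06) and 2.27 (SE 0.218, limma adjusted p = 1.55e-05), which is 5.44-fold and 4.84-fold. Both belong to a large family. RefSeq's annotation of zebrafish assembly GRCz12tu has 13 genes named mfap4, all on the same chromosome, so reads of near-identical copies may have been divided between them in the counting and the split between these genes is uncertain.

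marco, the scavenger receptor, was a weakly expressed gene with a clear separation: 64, 48, 40 and 49 normalized counts in WT larvae with cortisol, against 11, 18, 13 and 12 with vehicle. The log2 difference was 1.89 (SE 0.179, limma adjusted p = 1.55e-05). cybb, the oxidase subunit, had 192, 173, 158 and 140 normalized counts with cortisol and 54, 63, 43 and 46 with vehicle. It had the smallest relative spread between samples of the 8 genes in WT larvae with cortisol (165.8 ± 22.1, SD, n = 4), and its log2 difference was 1.69 (SE 0.141, limma adjusted p = 6.02e-06). mpeg1.2 had 990, 924, 515 and 350 normalized counts with cortisol and 188, 330, 189 and 170 with vehicle. The groups did not overlap, although its lowest sample with cortisol exceeded the highest with vehicle by little, and the log2 difference was 1.59 (SE 0.179, limma adjusted p = 8.92e-05).

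The other 3 genes rose by less than 2-fold. spi1b, which encodes PU.1, had 50, 68, 42 and 40 normalized counts in WT larvae with cortisol, against 35, 30, 25 and 21 with vehicle, a log2 difference of 0.84 (SE 0.147, limma adjusted p = 0.00404) without overlap. mpeg1.1, the paralog of mpeg1.2 and the gene whose promoter is the usual macrophage reporter, had 127, 96, 80 and 71 with cortisol and 51, 80, 40 and 42 with vehicle. Its log2 difference was 0.83 (SE 0.223, limma adjusted p = 0.0351), and replicate 2 with vehicle equalled or exceeded both samples of day 2 with cortisol. csf1ra had 667, 680, 396 and 366 with cortisol and 364, 542, 352 and 244 with vehicle, so that the groups overlapped, and the log2 difference was 0.49 (SE 0.145, limma adjusted p = 0.0471). The calls for mpeg1.1 and csf1ra were the weakest. They were kept in 11 and 6 of the 16 fits that left out 1 sample, with log2 differences of 0.68 to 0.95 and of 0.38 to 0.61.

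**Figure D1:**
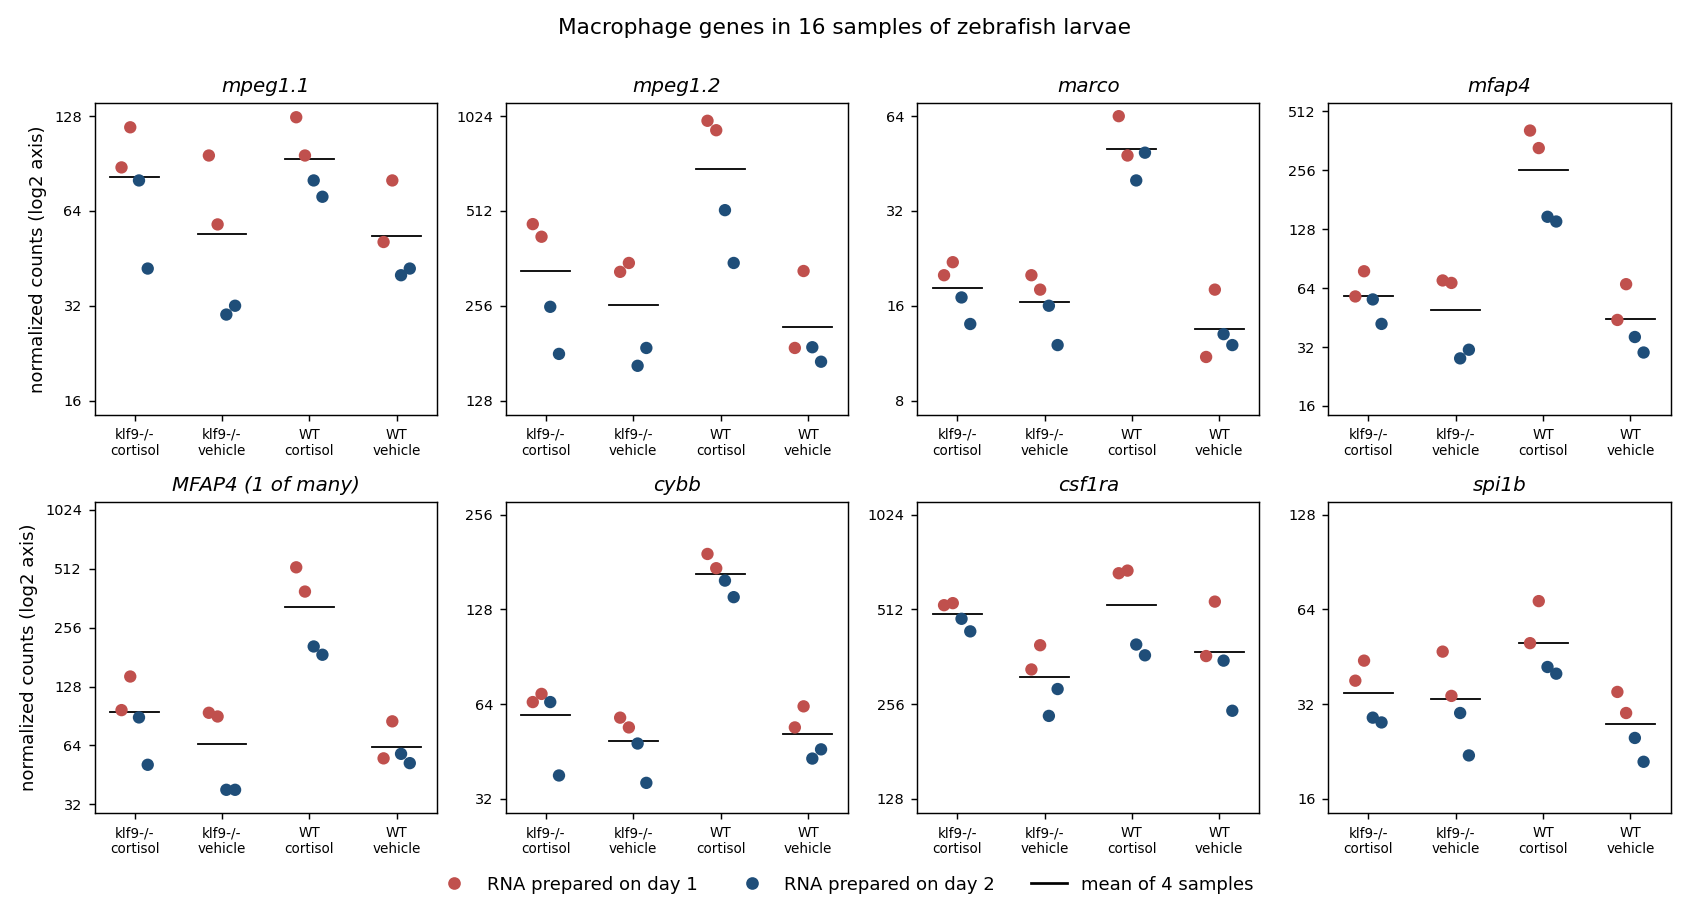
Normalized counts (log2 axis) of the 8 macrophage genes in each of the 16 samples, by condition (klf9-/- with cortisol, klf9-/- with vehicle, WT with cortisol, WT with vehicle), coloured by the day of RNA preparation, with the mean of 4 samples as a line. For mfap4, MFAP4 (1 of many), marco and cybb, the 4 samples of WT larvae with cortisol lie above the other 12 samples, and samples of day 2 tend to lie below those of day 1.

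Hence 8 of 8 genes were called higher with cortisol in WT larvae, where 4.85% of all genes tested were called higher, and 6 of the 8 (all but mpeg1.1 and csf1ra) had no overlap between the 4 samples with cortisol and the 4 with vehicle, where 2.02% of all genes had none in that direction. An exact two-sided permutation test of these 6 genes gave p = 0.029 each, the smallest that 4 against 4 samples allow, and p = 0.086 for mpeg1.1 and p = 0.14 for csf1ra. mpeg1.1 and csf1ra were higher with cortisol in 4 of 4 comparisons of same-numbered replicates. For the other 6 genes the lack of overlap already fixes that outcome. The median log2 difference of the 8 genes was 1.64, against −0.03 over all genes. The response was seen on both days: the median was 1.79 on day 1, with 7 genes called (18.1% of all genes were called higher that day), and 1.49 on day 2, with 5 genes called (1.6% of all genes). The difference between the days was called for 0 of the 8 genes (limma adjusted p of 0.106 to 0.987), where 16.7% of all genes were called in either direction.

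**Figure D2:**
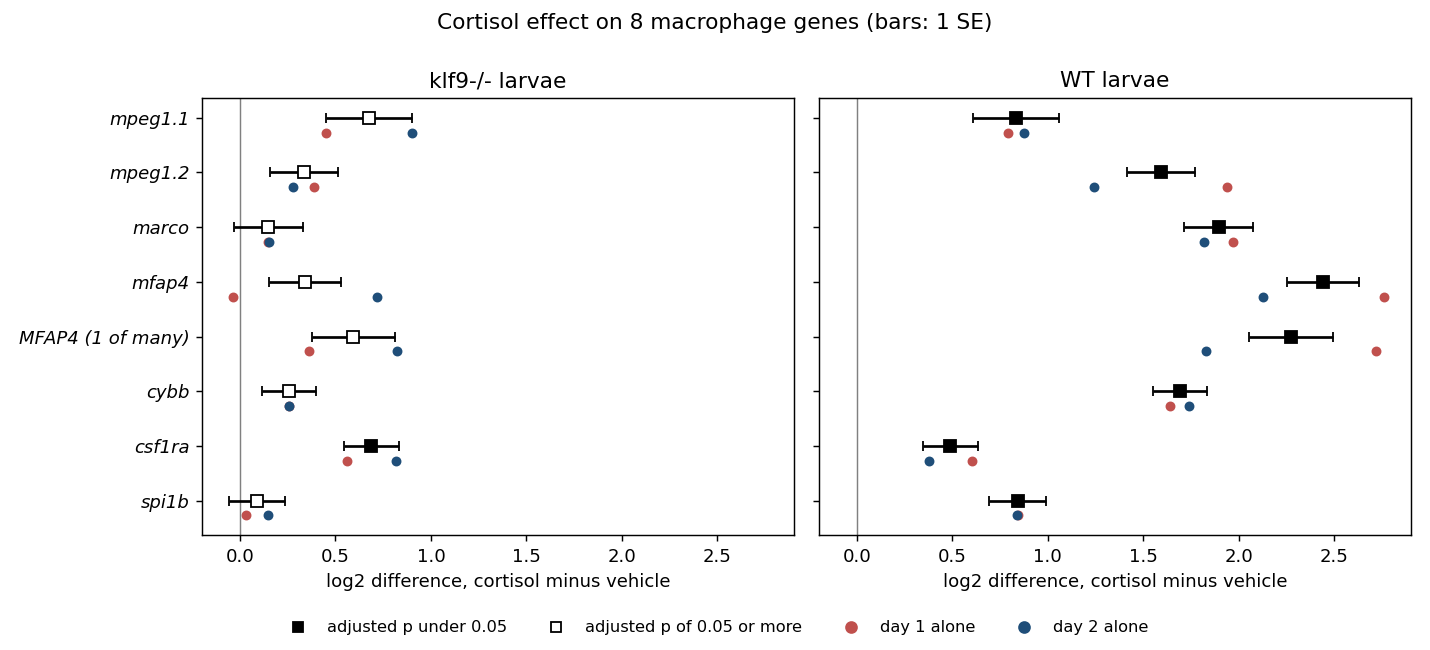
Log2 difference between cortisol and vehicle for the 8 macrophage genes in klf9-/- larvae (left) and WT larvae (right), with 1 SE as bars, filled squares for adjusted p under 0.05 and coloured points for each preparation day alone. In klf9-/- larvae the values run from 0.09 (spi1b) to 0.69 (csf1ra), and in WT larvae from 0.49 (csf1ra) to 2.44 (mfap4).

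With vehicle alone, the genotypes were not distinguished by any of the 8 genes. The log2 differences between klf9-/- and WT larvae ran from −0.24 (csf1ra) to 0.29 (marco), with a median of 0.02 against 0.01 over all genes. The threshold was passed by 0 of 8 genes, where 0.629% of all genes passed it in either direction, and the 4 samples of the genotypes overlapped for each of the 8 genes, where 3.91% of all genes had no overlap. With limma, 0 of the 8 genes reached an unadjusted p under 0.05 in this comparison, where 2727 of the 21468 genes tested did. With only 8 genes, a count of 0 is near that share.

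With cortisol, 5 of the 8 genes were lower in klf9-/- larvae than in WT larvae, where 1.45% of all genes were called lower. mfap4 was lower by a log2 difference of −2.01 (SE 0.189, limma adjusted p = 1.54e-05), MFAP4 (1 of many) by −1.73 (SE 0.218, limma adjusted p = 0.000331), cybb by −1.51 (SE 0.141, limma adjusted p = 1.5e-05) and marco by −1.46 (SE 0.179, limma adjusted p = 0.000294). For these 4 genes every klf9-/- sample lay below every WT sample, where 2.46% of all genes showed this. mpeg1.2 was lower by −1.05 (SE 0.179, limma adjusted p = 0.0042), with overlap between the klf9-/- samples of day 1 and a WT sample of day 2. spi1b (−0.52, SE 0.147, limma adjusted p = 0.0902), mpeg1.1 (−0.25, SE 0.223, limma adjusted p = 0.725) and csf1ra (−0.04, SE 0.145, limma adjusted p = 0.953) were not called.

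The difference between the genotypes in the response to cortisol was tested directly as the interaction, here the effect in klf9-/- larvae minus that in WT larvae. It was called for mfap4 (−2.10, SE 0.268, limma adjusted p = 0.00247), cybb (−1.43, SE 0.200, limma adjusted p = 0.004), marco (−1.75, SE 0.253, limma adjusted p = 0.00492) and MFAP4 (1 of many) (−1.68, SE 0.308, limma adjusted p = 0.0354). These 4 genes are among only 37 of the 21468 genes (0.172%) that passed the threshold for the interaction, all of them lower. mpeg1.2 gave −1.26 (SE 0.254, limma adjusted p = 0.071), spi1b −0.75 (SE 0.208, limma adjusted p = 0.39), mpeg1.1 −0.16 (SE 0.315, limma adjusted p = 0.993) and csf1ra 0.20 (SE 0.205, limma adjusted p = 0.986), so a weaker response in klf9-/- larvae was not shown for these 4 genes in this fit. mpeg1.2 lay nearest to a call among them. It passed the threshold with 10 normalized counts added (limma adjusted p = 0.0458), with a mean for each condition and day (limma adjusted p = 0.0401) and with array weights (limma adjusted p = 0.0351). Among the 16 fits that left out 1 sample, 3 called it. Of the called genes, MFAP4 (1 of many) was the weakest: its call was kept in 7 of the 16 fits that left out 1 sample, while those of mfap4, cybb and marco were kept in all 16. It was also lost with replicate number as a block (limma adjusted p = 0.0503), without the variance trend (limma adjusted p = 0.0789) and at a minimum mean of 75 normalized counts (limma adjusted p = 0.0742). Within a single day, the interaction of the 4 called genes was −2.80 to −1.38 on day 1, and on day 2 it was −1.66 for marco, −1.48 for cybb, −1.41 for mfap4 and −1.004 for MFAP4 (1 of many).

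These calls rest on preparation day as a term in the model. Without that term the same log2 differences gave 0 of 8 genes for the interaction, where 0.00932% of all genes were called in either direction. For cortisol in WT larvae they gave 4 of 8 (mfap4, MFAP4 (1 of many), marco and cybb), where 0.452% of all genes were called. The 8 genes also differed between the days, which stand for preparation and collection order alike. All 8 were lower on day 2 than on day 1, from −0.35 (marco) to −0.94 (mfap4), where 32.7% of all genes were called lower. Leaving out both WT samples of day 1 with cortisol, which hold the highest values of mfap4, MFAP4 (1 of many) and mpeg1.2, gave 5 genes for cortisol in WT larvae (0.47% of all genes) and 2 for the interaction (0.0419%).

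To ask whether the 8 genes moved by a common factor, each was expressed relative to the mean of the other 7 in the same sample, on the log2 scale, since a factor shared by all genes leaves these ratios unchanged. In klf9-/- larvae no gene stood apart between cortisol and vehicle, either relative to the mean of the other 7 (from −0.34 for spi1b to 0.34 for csf1ra) or relative to spi1b alone. Relative to spi1b the differences there ran from 0.06 (marco) to 0.60 (csf1ra), with mpeg1.1 at 0.58. In WT larvae the ratios did not stay unchanged. Relative to the others, csf1ra was lower with cortisol by a log2 difference of −1.16 (1.77 ± 0.0939 with cortisol, 2.93 ± 0.193 with vehicle, SD, n = 4 each), mpeg1.1 by −0.77 and spi1b by −0.76, while mfap4 was higher by 1.07 and MFAP4 (1 of many) by 0.88. For each of these 5 genes the 4 samples with cortisol lay apart from the 4 with vehicle, and the shift had the same sign on both days (csf1ra −1.21 on day 1 and −1.12 on day 2, mfap4 1.26 on day 1 and 0.88 on day 2). mpeg1.2, cybb and marco moved by 0.10, 0.21 and 0.44 relative to the other 7, with overlap. A ratio of this kind is low where the other genes rise, so a negative value does not show a fall of csf1ra, mpeg1.1 or spi1b, which were each higher with cortisol in WT larvae. The size of these shifts, and of those relative to spi1b below, follows from the log2 differences given above, so it is not separate evidence. No share of all genes without overlap was computed for such ratios.

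Measured against spi1b alone, mpeg1.1 showed no shift of its mean in WT larvae: the ratio differed by −0.01 between cortisol and vehicle (0.90 ± 0.349 with cortisol and 0.91 ± 0.387 with vehicle, SD, n = 4 each). With that spread an unchanged proportion is not shown. csf1ra also overlapped, at −0.35. On the other hand, mfap4 gained 1.60, MFAP4 (1 of many) 1.43, marco 1.05 and cybb 0.85 on spi1b, each without overlap between the 4 samples with cortisol and the 4 with vehicle, and mpeg1.2 gained 0.75 with overlap.

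**Figure D3:**
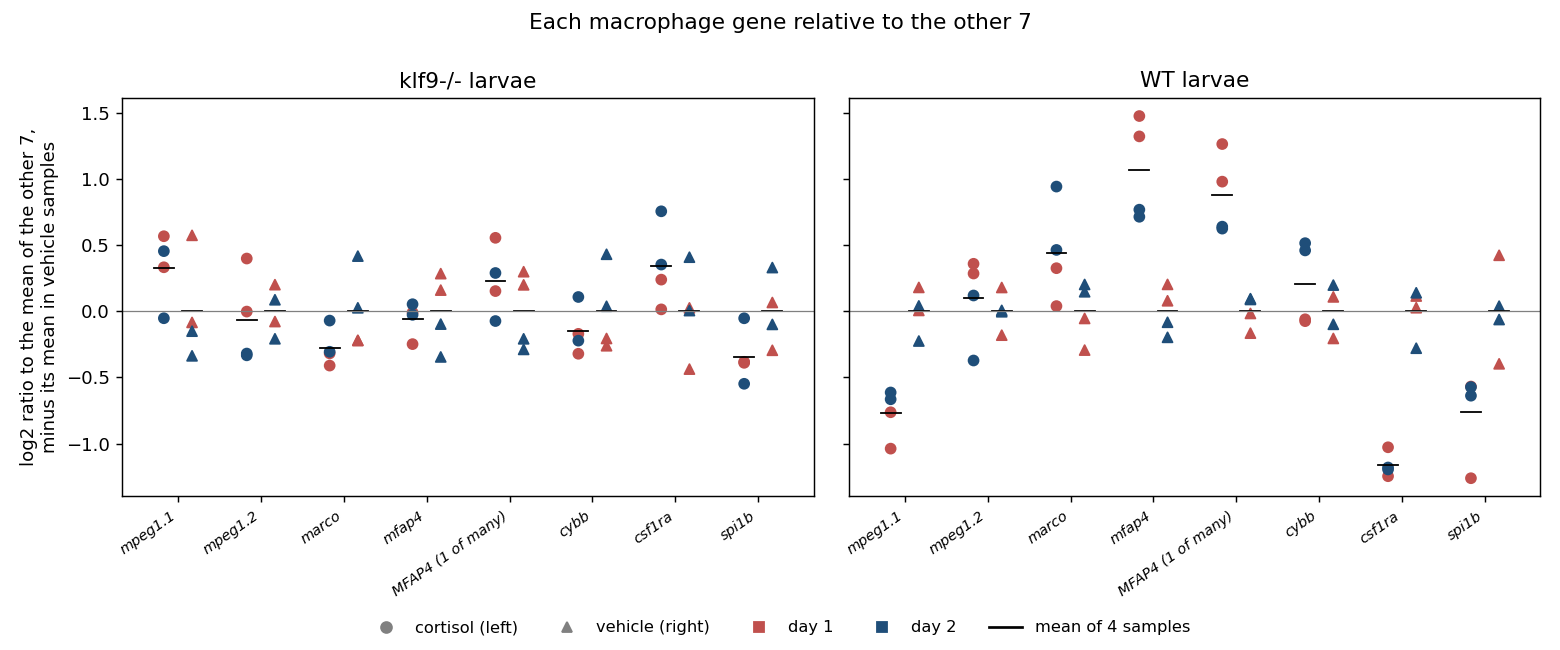
Log2 ratio of each macrophage gene to the mean of the other 7 in the same sample, shown minus its mean in vehicle samples, in klf9-/- larvae (left) and WT larvae (right). Circles are cortisol samples, triangles vehicle samples, colours the preparation day and lines the mean of 4 samples. In WT larvae the cortisol samples lie above 0 for mfap4 and MFAP4 (1 of many) and below 0 for mpeg1.1, csf1ra and spi1b.

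Between samples of the same condition and day, the genes tended to go together. Among the 8 pairs of samples with the same condition and day, the pair of klf9-/- cortisol samples of day 2 had all 8 genes higher in replicate 3 than in replicate 4, and the pair of WT vehicle samples of day 1 had 7 of 8 higher in replicate 2, spi1b being the exception. In 3 of the 6 further pairs 6 of the 8 genes were higher in the same sample, in 2 it was 7, and in 1 (klf9-/- vehicle samples of day 2) 4 genes were higher in one sample, 3 in the other and 1 was equal. After centring each gene within condition and day, Pearson's r over the 16 samples had a median of 0.55 among the 28 pairs of genes and was above 0 in 23 of them, from −0.28 (spi1b with mpeg1.2) to 0.95. These values describe samples that share a library each, with 8 pairs of samples behind them, and are given without a test. No such values were computed for other sets of genes, so they do not show a trait particular to the macrophage genes.

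Genes of the same machinery were read from lists of general knowledge, written with earlier results of these samples known. The phagocyte NADPH oxidase joins cybb to its membrane partner cyba (p22phox), to the cytosolic subunits ncf1 (p47phox) and ncf4 (p40phox) and to the GTPase rac2. Of these 4 partners, cyba alone was called in klf9-/- larvae (log2 difference 0.52, limma adjusted p = 0.0351), and ncf1 had 80, 63, 55 and 44 normalized counts with cortisol and 60, 60, 36 and 38 with vehicle. In WT larvae 3 of the 4 partners rose with cortisol, with a median log2 difference of 0.75 over the 4: ncf1 by 1.46 (limma adjusted p = 1.32e-05), cyba by 0.92 (limma adjusted p = 0.000415) and rac2 by 0.41 (limma adjusted p = 0.0386), while ncf4 was at 0.59 (limma adjusted p = 0.0753). ncf1 had 177, 184, 98 and 96 normalized counts with cortisol and 47, 65, 38 and 46 with vehicle, without overlap. The interaction was called for ncf1 (−1.13, limma adjusted p = 0.0178) and for none of the other 3 partners.

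For the receptor csf1ra, the list held its duplicate csf1rb, the ligands csf1a and csf1b, and il34, the second ligand of the receptor. Of these 4 genes, 0 were called in klf9-/- larvae, with il34 at 0.34 (limma adjusted p = 0.175). In WT larvae il34 alone rose, by 0.96 (limma adjusted p = 0.00276), with 51, 64, 31 and 36 normalized counts with cortisol and 24, 22, 22 and 22 with vehicle. csf1rb (0.02), csf1a (−0.11) and csf1b (0.16) were not called. The interaction for il34 was −0.61 (limma adjusted p = 0.712). Of the 6 other xanthophore genes, none was called in either genotype when both days were fitted together. These genes had a median log2 difference of 0.315 in klf9-/- larvae (0.03 to 0.64) and of 0.20 in WT larvae (−0.11 to 0.50). Their summed level was 1706 to 2420 normalized counts in klf9-/- larvae with cortisol, 1368 to 2097 in klf9-/- larvae with vehicle, 1756 to 2494 in WT larvae with cortisol and 1414 to 2506 in WT larvae with vehicle. Within day 1, 2 of these 6 genes were called higher and 1 lower in each genotype (18.1% and 21.7% of all genes in WT larvae, 7.06% and 9.64% in klf9-/- larvae). Within day 2, 1 was called higher in WT larvae (1.6% of all genes) and 0 in klf9-/- larvae. Their median in WT larvae was 0.50 on day 1 and −0.13 on day 2. The part of xanthophores in the csf1ra values was not tested.

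Among 7 further transcription factors on the myeloid list, 2 rose in klf9-/- larvae and 3 in WT larvae. In klf9-/- larvae cebpa (0.43, limma adjusted p = 0.0304) and mafbb (0.56, limma adjusted p = 0.0349) were called, irf8 was at 0.48 (limma adjusted p = 0.0756) and spi1a at 0.16 (limma adjusted p = 0.521). In WT larvae irf8, which directs macrophage over neutrophil fate, rose by 1.41 (limma adjusted p = 0.0001), with 92, 74, 56 and 50 normalized counts with cortisol and 28, 27, 21 and 24 with vehicle. spi1a, the duplicate of spi1b, rose by 1.14 (limma adjusted p = 0.000455), and cebpb, a factor of myeloid differentiation and inflammation, by 0.66 (limma adjusted p = 0.00784). cebpa (0.28), mafbb (0.36), runx1 (−0.39) and gata1a (−0.36) were not called in WT larvae. gata1a is an erythroid factor and is counted again among the erythrocyte genes below. The interaction was called for none of the 7 factors.

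Other macrophage and microglia markers behaved unevenly. In klf9-/- larvae 1 of 20 tested was called, apoeb, a lipid carrier gene used as a microglial marker, at 0.47 (limma adjusted p = 0.0463). There apoeb had 10699 to 14830 normalized counts with cortisol and 6194 to 14044 with vehicle, with overlap. The microglial gene p2ry12 had 2 to 14 and 4 to 10. Which cells of the whole larvae gave the apoeb values was not tested. In WT larvae 9 of the 20 were higher with cortisol and 0 lower, with a median of 0.66 (8 of 19 without cmklr1, whose identifier came only from a supplementary table of the study). The largest changes were those of il1b (2.33, a cytokine gene at 9 to 36 normalized counts with cortisol and 2 to 6 with vehicle), lgals9l1 (1.73), grna (1.59) and ctss2.1 (1.32), and cd68, a lysosomal macrophage gene, rose by 0.75. The microglial gene p2ry12 (−0.14), the scavenger receptor stab1 (−0.03), hexb (0.11), grnb (0.18) and apoeb (0.22) were not called. The interaction was called for 0 of the 20 markers (median −0.245). hexb, a lysosomal enzyme used as a microglial marker, was lower in klf9-/- than in WT larvae both with cortisol (−0.73, limma adjusted p = 0.000195) and with vehicle (−0.59, limma adjusted p = 0.00383). With vehicle it was the only 1 of the 20 markers called between the genotypes, and the cause was not tested. Outside the pair named here, 5 further genes of the MFAP4 family passed the limit on low values, of which 1 was higher with cortisol in klf9-/- larvae and 2 in WT larvae, including ENSDARG00000038683, which was called in both genotypes (log2 difference 1.04 in klf9-/- larvae, limma adjusted p = 0.0364; limma adjusted p = 0.0131 in WT larvae). The interaction was called for 0 of these 5 genes.

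Genes of the pan-leukocyte list, which macrophages share, and of the neutrophil list also tended to be higher with cortisol in WT larvae. Of 11 pan-leukocyte genes tested, 2 (coro1a and laptm5) rose with cortisol in klf9-/- larvae (median 0.22) and 10 in WT larvae (median 1.03), led by laptm5 (1.50), fcer1gl (1.40), plek (1.34) and coro1a (coronin, 1.28), with lcp1 (L-plastin) at 1.03. Their summed level was 1840 to 3239 normalized counts in klf9-/- larvae with cortisol, 1668 to 2644 in klf9-/- larvae with vehicle, 2596 to 4503 in WT larvae with cortisol and 1643 to 2632 in WT larvae with vehicle. Of 10 neutrophil genes, 0 rose in klf9-/- larvae (median 0.28) and 6 in WT larvae (median 0.75), led by lect2l (1.57), mmp9 (1.44), mpx (1.32) and lyz (lysozyme, 0.97). The identifiers of mpx and lect2l came only from a supplementary table of genes that the study drew from these samples for their response to cortisol, and without both 0 of 8 neutrophil genes were called in klf9-/- larvae and 4 of 8 in WT larvae (median 0.68). mpx, the neutrophil myeloperoxidase, had 262, 204, 146 and 210 normalized counts in WT larvae with cortisol and 103, 98, 61 and 69 with vehicle, a log2 difference of 1.32 (limma adjusted p = 0.000417), and its interaction was −1.26 (limma adjusted p = 0.0679). The summed level of the neutrophil genes was 1011 to 2702 in klf9-/- larvae with cortisol, 961 to 1981 in klf9-/- larvae with vehicle, 1468 to 3049 in WT larvae with cortisol and 892 to 1416 in WT larvae with vehicle. The interaction was called for 0 of the 11 pan-leukocyte genes (median −0.68) and 0 of the 10 neutrophil genes (median −0.46), where 0.172% of all genes were called. The counts per genotype therefore do not show a different response for any single gene of these lists. No marker on the pan-leukocyte and neutrophil lists was at 0 in any sample. The part of neutrophils in the values of cybb, spi1b and the oxidase genes, which they also express, was not tested. Nor was the part of macrophages in the values of the pan-leukocyte genes, which therefore do not show a rise of other leukocytes.

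Markers of lymphocytes and red cells did not follow when both days were fitted together. Of 9 lymphocyte genes and 4 erythrocyte genes tested, 0 were then called in either genotype, with medians of 0.10 and 0.01 in klf9-/- larvae and of 0.03 and 0.13 in WT larvae. Within single days of WT larvae, 2 of the 4 erythrocyte genes were called higher on day 1 (18.1% of all genes) and 1 of the 9 lymphocyte genes on day 2 (1.6%). The lymphocyte median in WT larvae was −0.24 on day 1 and 0.22 on day 2. The larger share of the erythrocyte list (5 of 9 genes) could not be matched to the files by name, which leaves 4 genes for the statements on red cells.

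**Figure D4:**
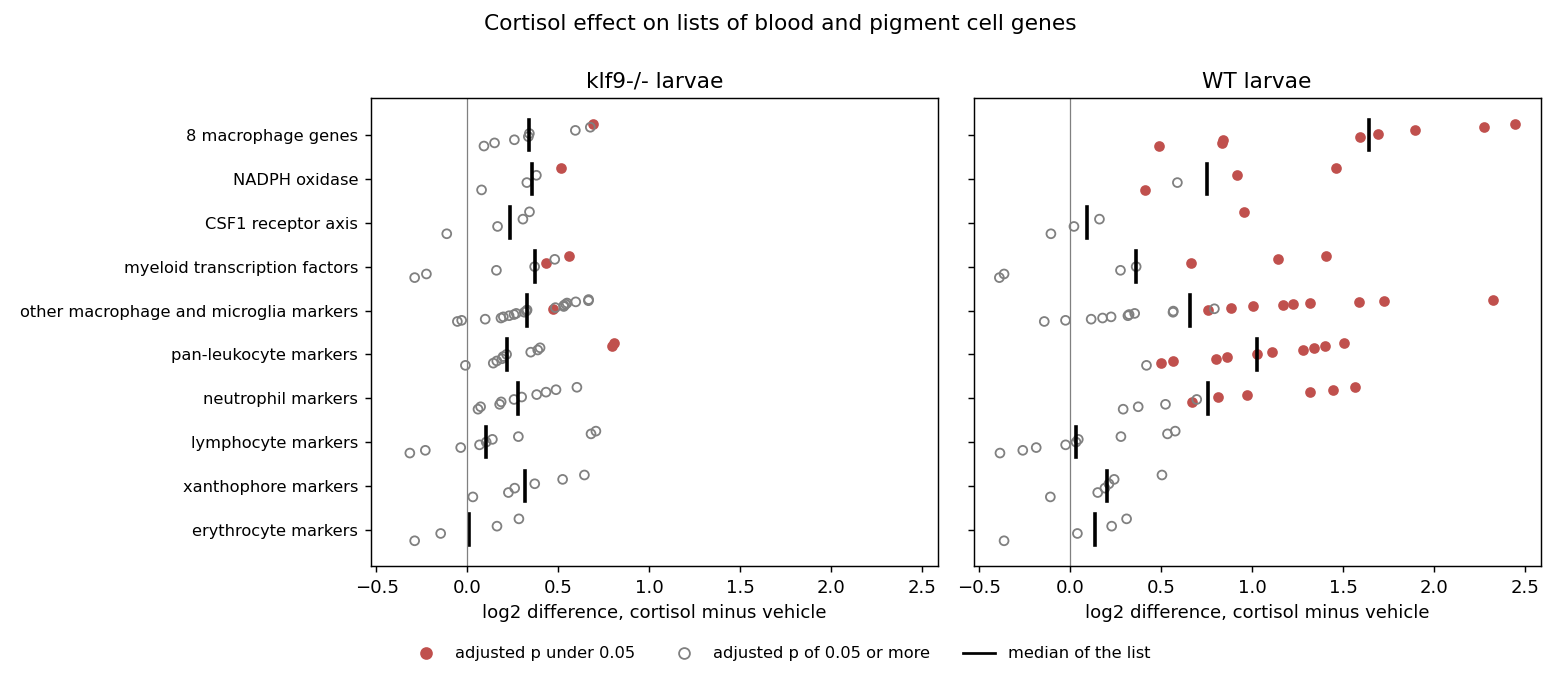
Log2 difference between cortisol and vehicle for each tested gene of the lists (the 8 macrophage genes first, each other list without them) in klf9-/- larvae (left) and WT larvae (right). Red points passed the threshold, open points did not, and a line marks the median of the list. In klf9-/- larvae the medians run from 0.01 (erythrocyte markers) to 0.37 (myeloid transcription factors), and in WT larvae from 0.03 (lymphocyte markers) to 1.64 (the 8 macrophage genes).

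The genes most like the 8 macrophage genes were ranked by Pearson's r with their mean scaled value over the 16 samples, centred within preparation day, among the 13732 genes that averaged 75 normalized counts or more. The 10 nearest were olmf4l1 (r = 0.976), cd68 (0.970), tap2t (0.969), olfm4l2 (0.966), PSME2 (0.966), ENSDARG00000114387 (0.953), PSME1 (0.953), c1ql1 (0.951), irf1b (0.95) and zgc:100868 (0.949). cd68 encodes a lysosomal protein of macrophages, tap2t belongs to the transporters of antigen peptides, PSME1 and PSME2 are subunits of the proteasome activator, and irf1b is an interferon regulatory factor. irf1b changed more than any of the 8 macrophage genes in WT larvae, with log2 differences of 0.40 in klf9-/- larvae (limma adjusted p = 0.269) and 2.87 in WT larvae (limma adjusted p = 5.95e-06). The 16 samples share 4 conditions, so a high r here mainly states the same order of conditions, and after centring within condition and day as well r was 0.43 to 0.89 for these 10 genes.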

How the data were processed

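Poly(A)-selected RNA of whole larvae was sequenced as single-end reads of 75 bases. The authors trimmed reads (Trimmomatic 0.38), aligned them to GRCz11 (STAR 2.6.1b), counted them per gene (RSEM 1.3.0) and used EDASeq to normalize for GC content within and full quantiles between samples. The deposited values are log2 of these normalized counts plus 0.1. Without raw counts no depth can be given, and quantile normalization can compress differences in total RNA.

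Genes averaging 5 normalized counts or more (21468) entered limma 3.58.1 in R 4.3.3 (a mean per condition, preparation day as covariate, eBayes with trend, Benjamini-Hochberg adjusted p under 0.05 over all genes). Log2 differences understate changes of very low genes. The script was tested on simulated data. Exact permutation tests compared single genes. Same-numbered replicates shared only the day (median r of deviations 0.46 over 24 pairs, 0.00 after removing the day). The 8 genes and the marker lists were chosen with earlier results of these data known. The rule for named genes was all 8, every measured gene of the NADPH oxidase, CSF1 receptor and transcription factor lists, the most changed called genes of the other lists (at most 4), and the 10 nearest by correlation; list genes given as not called, cd68, lcp1 and hexb were added after their values were seen. List genes not named enter the counts, except 1 gene that was left out and is not reported here. Names were paired with identifiers by symbol, then by the symbol in capitals, and otherwise (spi1b, cmklr1, mpx and lect2l) from supplementary tables of the study; counts without these were added after seeing the data. Names matched 100% of the oxidase and CSF1 receptor lists, 88.9% of the transcription factors, 81.5% of macrophage, 80.0% of pan-leukocyte, 66.7% of neutrophil and of lymphocyte, 77.8% of xanthophore and 44.4% of erythrocyte genes. The alternatives were array weights, no variance trend, a limit of 75 on the mean or none, 10 counts added, centring on sample medians, leaving out the day, a block by replicate number instead of it, separate means per condition and day, single days, fits of the compared groups alone and each sample left out; leaving out both cortisol-treated WT samples of day 1 and the difference of effects between days were added after seeing the data. Figures used Python 3.11.15 and matplotlib 3.10.9.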

Additional observations from a re-analysis of the deposited data

Results flagged for a closer look

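The response to cortisol differed between the genotypes by a test of the interaction (limma, klf9-/- minus WT) in 4 genes: marco (−1.75), mfap4 (−2.10), MFAP4 (1 of many) (−1.68) and cybb (−1.43). In each, the WT larvae showed the larger difference between cortisol and vehicle. The call for MFAP4 (1 of many) was kept in 7 of the 16 fits that left out 1 sample, and those of the other 3 genes in all 16.

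In 2 of 32 groups of 4 samples (8 genes in 4 conditions) a single sample stood far from the other 3. The rule used flags about 1 of 20 groups when all 4 values come from a single normal distribution. Each group here joins 2 preparation days that differed in all 8 genes, so the 2 of 32 cannot be set against that rate. mpeg1.2 had 330 normalized counts in WT vehicle replicate 2, against 170 to 189 in the others, and cybb had 38 in klf9-/- cortisol replicate 4, against 65 to 69. Without WT vehicle replicate 2, 8 of the 8 genes were still called for cortisol in WT larvae (5.28% of all genes) and 3 for the interaction (0.135%). Without klf9-/- cortisol replicate 4, cybb gave a log2 difference of 0.41 for cortisol in klf9-/- larvae (limma adjusted p = 0.0633), against 0.26 with it. In that fit 2 genes were called for cortisol in klf9-/- larvae (4.84% of all genes) and 3 for the interaction (0.121%).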

How the results depend on the processing

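Under most alternatives the counts of genes called stayed near those given. Centring on sample medians could hardly move them, since all samples had been forced to the same distribution, and it is no separate check. For cortisol in klf9-/- larvae (1 gene, where 5.3% of all genes were called in either direction), 0 were called without the day (0% of all genes) and on day 1 alone (4.37%), 2 with array weights (14%) and 3 with a mean for each condition and day (20.4%). For cortisol in WT larvae (8 genes), a minimum mean of 75 left 5 genes to test and called all 5, the fit without preparation day called 4 (0.452% of all genes), day 2 alone 5 (1.93%) and the fit without both cortisol-treated WT samples of day 1 called 5 (0.47%), where 8.98% of all genes were called here. For klf9-/- against WT with cortisol (5 genes, where 2.03% of all genes were called in either direction), 3 were called without the day (0.522%) and on day 1 alone (0.717%). For the interaction (4 genes, where 0.172% of all genes were called), 2 were called at a minimum mean of 75 (0.0874%) and 0 without the day (0.00932%). On day 1 alone 1 was called (0.0373%), on day 2 alone 0 (0.00466%), and 2 without both cortisol-treated WT samples of day 1 (0.0419%). For day 2 against day 1 (8 genes), a minimum mean of 75 called all 5 genes it left. Leaving out each sample in turn gave 0 to 3 genes for cortisol in klf9-/- larvae (0% to 13.5% of all genes, the 3 at 13.5%) and 6 to 8 in WT larvae (1.73% to 17.3% of all genes). It gave 0 for the genotypes with vehicle (0.247% to 1.13%), 5 with cortisol (1.16% to 2.53%), 3 to 5 for the interaction (0.107% to 0.224%) and 7 to 8 for the day (59.1% to 64.9%). The number of genes whose ratio to the other 7 stood apart was 0 to 2 in klf9-/- larvae and 5 to 6 in WT larvae. With replicate number as a block in place of the day, 1 gene was called for cortisol in klf9-/- larvae (2.53% of all genes) and 7 in WT larvae (6.04%). That fit called 0 for the genotypes with vehicle (0.377%), 5 with cortisol (1.71%) and 3 for the interaction (0.163%).

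Signs turned only for differences that were not called. On day 1 alone these were mfap4 for cortisol in klf9-/- larvae (−0.037), mpeg1.1 (0.22) and MFAP4 (1 of many) (0.43) for the genotypes with vehicle, and csf1ra for the interaction (−0.039). On day 2 alone they were mpeg1.2 (−0.025) and mfap4 (−0.16) for the genotypes with vehicle, csf1ra for the genotypes with cortisol (0.26) and mpeg1.1 for the interaction (0.025). csf1ra for the genotypes with cortisol was also at 0.013 with array weights and at 0.16 without both cortisol-treated WT samples of day 1. Leaving out each sample in turn, the genotypes with vehicle gave −0.30 to 0.0091 for mpeg1.1, −0.018 to 0.32 for mpeg1.2, −0.056 to 0.18 for mfap4, −0.27 to 0.084 for MFAP4 (1 of many) and −0.15 to 0.0047 for cybb. It also gave −0.12 to 0.021 for csf1ra between the genotypes with cortisol, −0.33 to 0.056 for the interaction of mpeg1.1 and −0.0077 to 0.19 for spi1b with cortisol in klf9-/- larvae. The causes of these changes were not tested.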
